A study of Drosophila ananassae with 22 samples.

Results

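Genes that build the first epithelium of the fly embryo and fold it at gastrulation were followed through embryogenesis in *Drosophila ananassae*. There were 8 of them by identifier: *nullo* (FBgn0004143), *Sry-alpha* (FBgn0003510), *bnk* (FBgn0004389), *slam* (FBgn0043854), *halo* (FBgn0001174), *fog* (FBgn0000719), *T48* (FBgn0004359) and *cta* (FBgn0000384). They were picked for what is known of them in *D. melanogaster*, whose identifiers the gene expression table carries. The table held 7 of the 8 among its 8758 rows. The remaining gene, *cta*, was not analysed here.

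RAMPAGE selects and sequences cDNAs that are complete at the cap, so that each read marks the position where a transcript started. Whole embryos of the strain In(3R)A, from which the reference genome was made, were collected in windows of 1 hr and aged to give 22 collections between 0 and 22 hr after egg laying, with no other treatment or genotype. Each collection was 1 sample, barcoded before all collections were mixed and prepared together, and no time point had a replicate. Expression is given in RPM, the reads of a gene scaled to the total of that collection (reads per 1e6). Since reads are counted only at transcript starts, no scaling for length is needed between genes. Differences between genes in capture or PCR copying were not measured.

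The collections had between 1193107 and 12409410 reads in transcription start site clusters (TSCs), with a median of 4420426, apart from the 7-8 hr collection, which had 579. The 7-8 hr collection held 0 reads of the 7 genes and was left out, which leaves 21. The value of a read ran from 0.0794 to 0.825 RPM in the gene table, so that a gene without a read could still have been present at up to 0.238 RPM in the deepest and 2.48 RPM in the shallowest collection, the value of 3 reads. Intervals and limits given here cover counting error only, since reads copied by PCR are not independent molecules.

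Early fly embryos are a syncytium, in which nuclei divide without cell membranes between them. During cellularization the plasma membrane folds in between the nuclei of the blastoderm, and in *D. melanogaster* this is the first event that needs genes transcribed by the embryo itself. Gastrulation follows at once, as cells constrict at their apical side and the ventral furrow and the posterior midgut fold inward.

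In *D. melanogaster*, *nullo*, *Sry-alpha* and *bnk* organize the actin network at the front of the growing furrows, with *bnk* holding back its contraction. The product of *slam* localizes to the same front and is needed for the furrows to grow. *halo* sets the direction in which lipid droplets are carried along microtubules at this stage. *fog* encodes a secreted signal that triggers apical constriction through a receptor and the G protein subunit encoded by *cta*, whereas *T48* encodes a transmembrane protein that acts beside it at the apical side.

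The 5 cellularization genes shared a single sharp peak at 2-3 hr in *D. ananassae*, while *fog* was expressed through the whole series and *T48* was barely detected. Expression of *nullo* was 1.43 RPM at 0-1 hr, 11.2 RPM at 1-2 hr, 69.4 RPM at 2-3 hr and 0.402 RPM at 3-4 hr. It had no read at 4-5 hr, and of the later collections only 13-14 hr and 21-22 hr held any, 2 reads each. *nullo* was thus the lowest of the 5 genes at the peak, with 352 reads behind its highest value.

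*Sry-alpha*, whose product binds the membrane and actin, was expressed at 9.88, 33.3, 668 and 6.24 RPM in the first 4 collections. It had no read in any later collection except 1 read at 21-22 hr. Of the 3721 *Sry-alpha* reads in the series, 3388 came from 2-3 hr.

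*bnk* was expressed at 12.3, 56.5, 513 and 2.62 RPM in the same 4 collections. From 4-5 hr on it stayed at or below 2.18 RPM, with at most 5 reads in a collection. Expression of *slam* was 13.0, 88.9, 751 and 4.63 RPM in the first 4 collections and 0 reads from 4 to 7 hr. Later collections had at most 3 reads of *slam*, a level near the detection limit, and its highest late value of 2.16 RPM, at 14-15 hr, had an interval of 0.445 to 6.30 RPM.

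*halo* had the highest level of the group and a longer tail. It rose from 21.1 RPM at 0-1 hr and 112 RPM at 1-2 hr to 1676 RPM at 2-3 hr. Expression then declined over several hours, from 287 RPM at 3-4 hr through 124 RPM at 4-5 hr, 81.2 RPM at 5-6 hr and 31.4 RPM at 6-7 hr to 6.19 RPM at 8-9 hr. After 9 hr *halo* never exceeded 1.44 RPM.

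**Figure D1:**
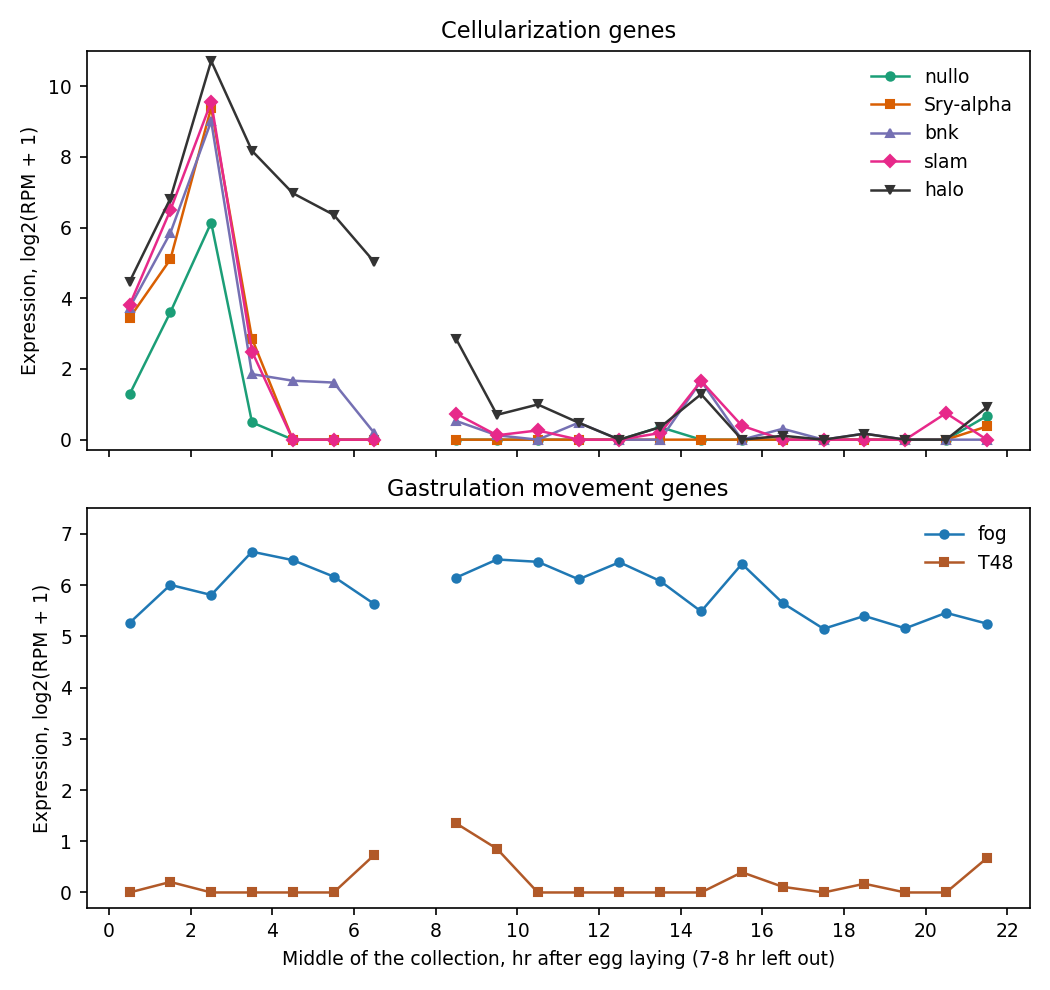
Expression of the 5 cellularization genes (top) and of *fog* and *T48* (bottom) in each of 21 collections, as log2(RPM + 1) against the middle of the collection in hr after egg laying. Each point is 1 collection without replicate, and lines break at the 7-8 hr collection, which was left out. *nullo*, *Sry-alpha*, *bnk*, *slam* and *halo* all stand highest at 2-3 hr, *halo* declines more slowly than the other 4, and *fog* stays between 34.4 and 99.6 RPM throughout.

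The order of the 5 genes at 2-3 hr was *halo* (1676 RPM, interval 1641 to 1712 RPM), *slam* (751 RPM, 727 to 775 RPM), *Sry-alpha* (668 RPM, 646 to 691 RPM), *bnk* (513 RPM, 494 to 534 RPM) and *nullo* (69.4 RPM, 62.4 to 77.1 RPM). No neighbours in this order had overlapping counting intervals. With 1 sample of this age, the spread between embryo collections behind that order is unknown.

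How far expression was confined to 1 collection was measured as the share of the summed RPM in the highest of the 21 collections. This share was 93.1% for *Sry-alpha*, 87.1% for *slam*, 86.6% for *bnk*, 83.4% for *nullo* and 71.5% for *halo*. The median over the 7207 rows that reached 10 RPM in some collection was 12.5%, and among these rows *Sry-alpha* ranked 2, *slam* 5, *bnk* 6, *nullo* 9 and *halo* 19. The share for *fog* was 7.67%, rank 6842, which placed it among the rows spread most evenly.

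Of the 6 genes past this minimum, 4 had at least 80% of their summed RPM in 1 collection, against 0.167% of all rows past it (12 rows). For the same 4 this collection was 2-3 hr, against 0.153% of all rows (11 rows). With *halo*, 5 of the 6 had at least 60% there, against 0.402% of all rows (29 rows). The highest collection was 2-3 hr for the same 5 genes and for 10.9% of all rows. *T48* did not reach the minimum and has no place in these counts.

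**Figure D2:**
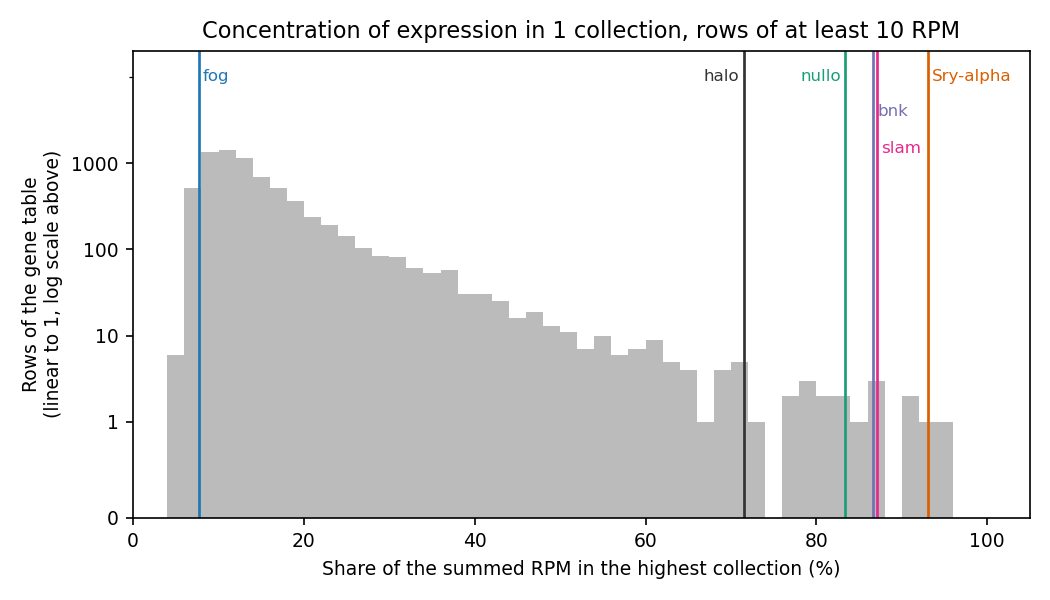
Distribution over 7207 rows of the gene table of the share of summed RPM in the highest collection (horizontal axis, %), with the number of rows on a scale that is linear to 1 and logarithmic above. Vertical lines mark the 6 genes that reached 10 RPM. *halo*, *nullo*, *bnk*, *slam* and *Sry-alpha* lie between 71.5% and 93.1%, beyond nearly all rows, and *fog* lies at 7.67%, below the median of 12.5%.

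Over wider windows the contrast with the other rows was smaller. The best 3 hr held 99.1% of the summed RPM of *Sry-alpha*, 99.0% of *slam*, 98.5% of *nullo* and 98.2% of *bnk*, in each case the first 3 hr, whereas *halo* had 89.1% between 2 and 5 hr. The median row had 30.6% in its best 3 hr, and *fog* had 20.0%, between 3 and 6 hr. The criterion that the study applies to single TSCs for developmental regulation was applied here to gene totals. At least 60% of the summed RPM lay within 8 hr for 5 of the 6 genes and for 44.7% of all rows, where windows that span 7-8 hr hold 7 collections. *fog* did not, with 45.9% in its best 8 hr, from 8 to 16 hr.

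The steepness of the peak was set out as ratios between neighbouring collections. *bnk* fell 196-fold between 2-3 hr and 3-4 hr (interval 115 to 369), *slam* 162-fold (108 to 256) and *Sry-alpha* 107-fold (75.3 to 158). For *nullo* the ratio was 173, with an interval of 47.4 to 1430, because only 2 reads remained at 3-4 hr. The intervals of these 4 genes overlapped, so that no order among them could be resolved at this depth. *halo* fell 5.84-fold over the same hour (5.52 to 6.18), outside the intervals of the other 4.

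After this first step *halo* fell 2.31-fold to 4-5 hr (2.03 to 2.63), 1.53-fold to 5-6 hr (1.23 to 1.92) and 2.58-fold to 6-7 hr (2.05 to 3.23). It fell 5.08-fold from 6-7 hr to 8-9 hr (3.42 to 7.81) and 9.87-fold from there to 9-10 hr (4.21 to 26.8), where 7 reads remained. All 6 steps were larger than counting error.

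The onset differed among the genes as well. At 1-2 hr *nullo* had 16.1% of its level at 2-3 hr (12.3% to 20.7%), *slam* 11.8% (10.8% to 12.9%), *bnk* 11.0% (9.84% to 12.3%), *halo* 6.68% (6.18% to 7.20%) and *Sry-alpha* 4.98% (4.32% to 5.71%). The intervals of *slam*, *bnk* and *nullo* overlapped between neighbours, whereas *halo* and *Sry-alpha* lay below them and apart from each other. *nullo*, *slam* and *bnk* were accordingly the furthest advanced relative to their own peak 1 hr before it.

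Reads of all 5 genes were already present at 0-1 hr, when *bnk* had 2.39% of its level at 2-3 hr, *nullo* 2.06%, *slam* 1.73%, *Sry-alpha* 1.48% and *halo* 1.26%. The 24 other rows with at least 60% of their summed RPM at 2-3 hr had a median of 3.27% at 0-1 hr (range 1.08% to 10.3%), 18.4% at 1-2 hr and 3.32% at 3-4 hr. At 0-1 hr all 5 genes were below that median, and at 3-4 hr *halo*, at 17.1%, was above it while *Sry-alpha* (0.933%), *slam* (0.617%), *nullo* (0.580%) and *bnk* (0.509%) were below.

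**Figure D3:**
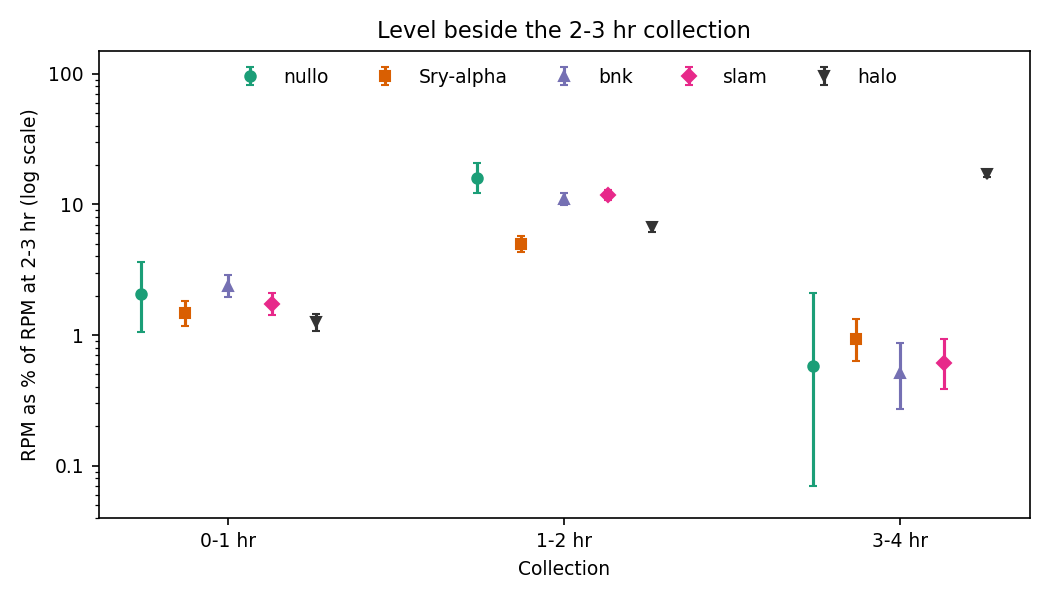
Level of the 5 cellularization genes at 0-1 hr, 1-2 hr and 3-4 hr as a percentage of the level at 2-3 hr, on a log scale, with 95% exact intervals from the reads. At 3-4 hr *halo* is at 17.1% and the other 4 genes are below 1%, and at 1-2 hr the genes range from 4.98% (*Sry-alpha*) to 16.1% (*nullo*).

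Across the 21 collections, *nullo*, *Sry-alpha*, *bnk* and *slam* had nearly the same profile. Pearson's r of log2(RPM + 1) between pairs of them was 0.94 to 0.98, and r of *halo* with them was 0.66 to 0.79. *fog* had an r of -0.06 to 0.25 with the 5 genes. The points share the depth and the age of each collection, and r among the first 4 rests on the few collections between 0 and 4 hr with more than a trace of reads.

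The rows most like each gene were sought among all rows that reached 10 RPM. The nearest to *Sry-alpha* was FBgn0085243 (r = 0.99 over 21 collections) and the nearest to *halo* was FBgn0003719 (r = 0.98), for which the sources used here pair no symbol. *slam* was the third nearest row to *bnk*. The 3 nearest rows of each of the 5 cellularization genes all had their highest collection at 2-3 hr. Their shared peak is largely given by the way they were sought, as rows with a like profile. No row was as close to *fog*, whose nearest had an r of 0.84.

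Tests of these time courses have no replicates to rest on. The spread between consecutive collections takes the place of replicate error, so that real change within a window widens it. limma's moderated test was fitted to log2(RPM + 1) of all 7207 rows, with Benjamini-Hochberg adjustment over all of them, and fold changes on this scale understate the change of low genes. Rows pass the minimum of 10 RPM on their highest collection alone, so the counts below describe the genes and are no evidence about them as a group. In bulk RNA of whole embryos, fewer cells that express a gene and less RNA per cell cannot be told apart.

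A change with time, fitted as a smooth curve of 4 degrees of freedom, was called for 6 of 6 genes and for 92.9% of all rows, a share that sets nothing apart about the 6. The adjusted p of limma was 2.4e-09 for *halo*, 0.00010 for *bnk*, 0.00034 for *slam*, 0.00036 for *Sry-alpha*, 0.0087 for *fog* and 0.0093 for *nullo*. The call for *nullo* was lost without the 1-2 hr collection (adjusted p = 0.064) and with a pseudocount of 10 RPM (0.13). The call for *fog* was lost with TMM scaling (0.083) and in edgeR (0.098).

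Whether the genes were higher at 2-5 hr than after it was asked against the 4 collections between 5 and 10 hr. *halo* was at 1676, 287 and 124 RPM in the first window and at 81.2, 31.4, 6.19 and 0.627 RPM in the second, without overlap. *Sry-alpha* was at 668, 6.24 and 0 RPM against 0 reads in all 4 later collections, and *nullo* was at 69.4, 0.402 and 0 RPM against 0 reads in all 4. *slam* was at 751, 4.63 and 0 RPM against 0, 0, 0.663 and 0.0896 RPM, and *bnk* was at 513, 2.62 and 2.18 RPM against 2.06, 0.133, 0.442 and 0.0896 RPM.

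For *nullo*, *Sry-alpha* and *slam* the 4-5 hr collection, at 0 reads, lay within the range of the later window. The difference rested mainly on 2-3 hr. Without the 3-4 hr collection the log2 differences were 3.07 (*nullo*), 4.69 (*Sry-alpha*) and 4.56 (*slam*), above those with it. For *bnk* the ratio of 4-5 hr to 5-6 hr was 1.05 (interval 0.205 to 6.79), so that these collections could not be told apart. *halo* was higher by 4.89 on the log2 scale (SE 0.93, adjusted p of limma 0.0021). *Sry-alpha* was higher by 4.08 (SE 1.15, adjusted p of limma 0.020), *slam* by 3.80 (SE 1.24, 0.039) and *bnk* by 3.56 (SE 1.07, 0.027). These 4 of 6 genes were called higher, against 4.95% of all rows.

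*nullo* was not called, with a log2 difference of 2.21 (SE 0.87, adjusted p of limma 0.086), and neither was *fog*, with 0.21 (SE 0.32, 0.69). *nullo* was called in edgeR (adjusted p 0.0037), and by limma without the 3-4 hr collection (0.034) or the 4-5 hr collection (0.013). The fitted values of *Sry-alpha* and *nullo* depend on the pseudocount, since the later window holds no read. Against the value of 3 reads over the pooled depth of that window (0.122 RPM), the mean RPM at 2-5 hr was 1847-fold higher for *Sry-alpha* and 191-fold higher for *nullo*. This takes the level as even from 5 to 10 hr, and a level confined to a shallow collection could have been higher. These ratios are therefore not strict lower bounds. Without the 2-3 hr collection the ratio for *Sry-alpha* was 25.6-fold. *nullo* then had 2 reads left in the 2-5 hr window, a mean of 0.201 RPM, for which no ratio is given. The fitted log2 differences without it were 1.43 for *Sry-alpha*, 1.15 for *bnk*, 1.03 for *slam* and 0.24 for *nullo*, and only *halo*, at 3.84, kept its call. With a pseudocount of 10 RPM again only *halo* was called.

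The same 2-5 hr collections were set against 0-2 hr. *halo*, at 21.1 and 112 RPM before 2 hr, did not overlap with its 3 later values, and was higher by 2.98 on the log2 scale (SE 1.11, adjusted p of limma 0.068). For *nullo*, *Sry-alpha*, *bnk* and *slam* the collections before 2 hr lay between the value at 2-3 hr and the values at 3-5 hr. Their log2 differences were -0.23 (SE 1.04, adjusted p of limma 0.93) for *nullo*, -0.19 (SE 1.38, 0.97) for *Sry-alpha*, -0.61 (SE 1.28, 0.82) for *bnk* and -1.13 (SE 1.48, 0.68) for *slam*.

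Against 0-2 hr, limma called 0 of the 6 genes higher, against 6.87% of all rows, and 0 lower, against 11% of all rows. At an unadjusted p under 0.05 limma found 863 rows higher, *halo* among them and none of the other 5 genes in either direction, and edgeR called *halo* at an adjusted p of 0.047. TMM scaling gave the same call for *halo* (0.044), and it raised the median row by 0.37 in this comparison. With it 812 rows were called higher and 536 lower, against 495 and 791 with the RPM values as deposited, and edgeR called 1251 higher and 534 lower. The 2-5 hr window holds both the highest and the near-lowest values of *nullo*, *Sry-alpha*, *bnk* and *slam*, and the sign of their differences turned with the pseudocount and the tool. Without the 2-3 hr collection the 4 differences lay between -3.90 (*slam*) and -2.20 (*nullo*), and all passed the test.

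The gene table and the TSC table were joined through their reads, since 82.2% of the rows had the same reads in every collection as exactly 1 *D. ananassae* gene. This placed 6 of the 7 genes on the *D. ananassae* r1.3 assembly of FlyBase. The match for *T48*, with only 27 reads, was not exact, and no position is given for it. RPM of single TSCs is scaled to the reads in TSCs. The total that the value of 1 read implies for the gene table exceeded these by 1.04% to 2.90%. RPM values of single TSCs therefore run slightly higher than those of the gene table.

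Each of the 5 cellularization genes had a single TSC, as did 61.1% of genes with an attributed TSC. The *slam* TSC spanned 16 bp, at scaffold_12916:7871440-7871455 on the minus strand (gene FBgn0091545). The *Sry-alpha* TSC spanned 51 bp, at scaffold_12911:3423812-3423862 on the minus strand (FBgn0096992), and the *bnk* TSC also spanned 51 bp, at scaffold_13340:14403547-14403597 on the plus strand (FBgn0095435). The *halo* TSC spanned 76 bp, at scaffold_12916:14906220-14906295 on the minus strand (FBgn0091066), and the *nullo* TSC spanned 109 bp, at scaffold_13117:2282048-2282156 on the minus strand (FBgn0097977). The median width over all TSCs was 40 bp, so *slam*, with 4530 reads, initiated within a narrower stretch than most TSCs, and *nullo*, with the fewest reads of the 5, within the widest.

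*slam* and *halo* lay on the same scaffold but far apart, and no 2 of the 5 genes were neighbours. Within 6 kb of their TSCs, *nullo* and *halo* had no other TSC. The *bnk* TSC had 2 within that distance, both downstream. The stronger, 2.64 kb downstream on the opposite strand, reached 415.8 RPM at 17-18 hr and had 2.82 RPM at 2-3 hr, so that the neighbours were high at different ages.

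*Sry-alpha* had 8 TSCs within 6 kb, the most of the group, and 6 of them reached 10 RPM. None of the 6 had more than 13.3% of its summed RPM in a single collection, against 93.1% for *Sry-alpha* in the gene table. The nearest on the same strand, 1.68 kb upstream, ranged from 9.71 to 92.6 RPM with a median of 29.2 RPM. The nearest downstream, at 1.99 kb on the same strand, ranged from 1.68 to 27.6 RPM, and both of these TSCs had their highest value at 2-3 hr. The strongest, 5.35 kb upstream on the opposite strand, ranged from 55.3 to 455 RPM and was highest at 0-1 hr. All 6 had reads in every one of the 21 collections, whereas *Sry-alpha* had reads in 5.

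**Figure D4:**
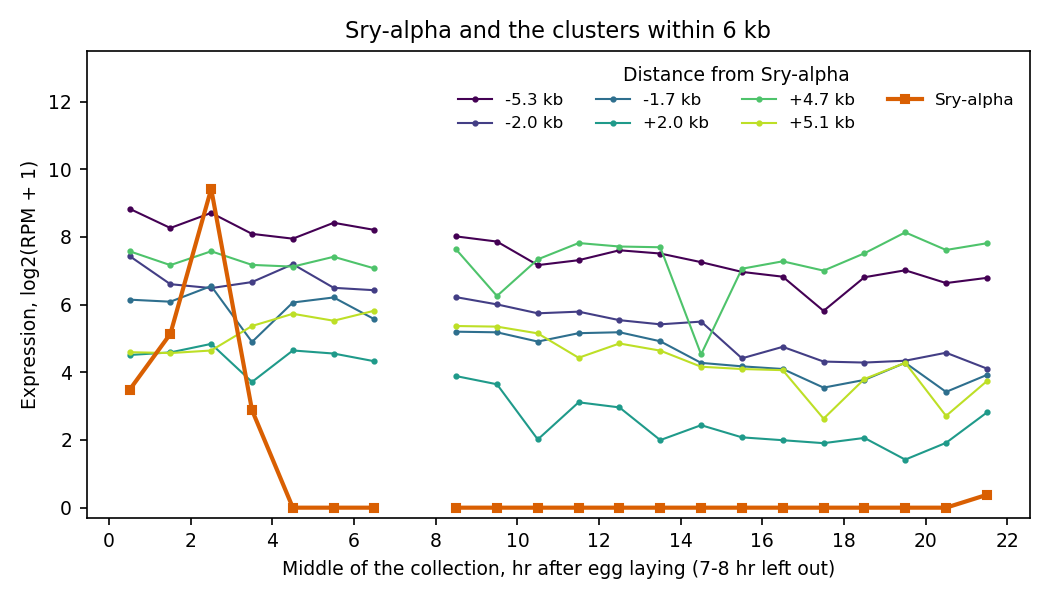
Expression of the *Sry-alpha* TSC (thick line, squares) and of the 6 TSCs within 6 kb that reached 10 RPM, as log2(RPM + 1) per collection. Distances in the legend are from the start of the *Sry-alpha* TSC, negative upstream of it. *Sry-alpha* rises above all 6 at 2-3 hr only and is at 0 reads from 4-5 hr to 20-21 hr, while the 6 have reads in all 21 collections.

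Next to *slam* there was an unattributed TSC on the opposite strand, 1.17 kb downstream of the *slam* TSC, at scaffold_12916:7870290-7870305. It had 34 reads in the series, 33 of them at 2-3 hr, where it reached 6.65 RPM, or 98.0% of its summed RPM. Its highest collection was thus that of *slam*, whose own TSC stood at 767 RPM there. This TSC was singled out after its values were seen.

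In contrast to the cellularization genes, *fog* was detected in all 21 collections, with 6329 reads. Its lowest value in the gene table was 34.4 RPM at 17-18 hr, the median was 63.2 RPM and the highest was 99.6 RPM at 3-4 hr, a range of 2.89-fold. *fog* was at 37.4, 63.2, 55.0, 99.6, 88.8 and 70.8 RPM in the first 6 collections, and between 3-4 hr and 2-3 hr the ratio was 1.81 (1.56 to 2.10). With TMM scaling the highest collection of *fog* moved to 15-16 hr, so the place of its maximum is not settled by these data.

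Against 0-2 hr the 2-5 hr collections of *fog* differed by 0.68 on the log2 scale (SE 0.38, adjusted p of limma 0.23). The difference was 1.05 with TMM scaling (adjusted p 0.061), 1.06 in edgeR (0.051), 0.31 without the 0-1 hr collection and 1.05 without the 1-2 hr collection, and none of these passed the test. The total of the gene, however, joins several start sites with different courses. *fog* (FBgn0099159) had 6 TSCs on the plus strand of scaffold_12929, over 21.8 kb. TSC 1 (1107252-1107383, 132 bp) held 67.7% of its reads, TSC 2 (1122894-1122930, 37 bp, 15.6 kb downstream of TSC 1) held 24.6%, and TSC 6 (1129094-1129134, 41 bp, 21.8 kb downstream) held 6.48%. TSCs 3 to 5 each held under 0.6% of the reads.

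TSC 1 was active throughout, between 22.3 RPM at 17-18 hr and 67.3 RPM at 9-10 hr, with a median of 34.0 RPM. In the first 6 collections it stood at 36.7, 61.4, 49.0, 31.7, 28.5 and 32.3 RPM. It was therefore lower at 3-4 hr, when the gene as a whole was highest, than at 1-2 hr.

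TSC 2 carried the rise. It was at 1.71 RPM at 0-1 hr, 1.88 RPM at 1-2 hr and 6.05 RPM at 2-3 hr, then at 65.4 RPM at 3-4 hr, 58.7 RPM at 4-5 hr, 37.2 RPM at 5-6 hr and 11.7 RPM at 6-7 hr. Between 8 and 12 hr it stayed between 6.85 and 8.68 RPM. A later rise reached 41.2 RPM at 15-16 hr (interval 34.4 to 49.0 RPM).

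TSC 6 had its highest value of 13.9 RPM at 9-10 hr and was above 10 RPM only from 9 to 12 hr. The highest value thus fell at 9-10 hr for TSCs 1 and 6 of *fog* and at 3-4 hr for TSC 2. For TSC 1 the interval at 9-10 hr (62.5 to 72.3 RPM) overlapped that at 1-2 hr (55.5 to 67.8 RPM). A fit across the 11300 TSCs that reached 10 RPM, added after the values were seen, tested the 2-5 hr window against 0-2 hr for single start sites.

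In that fit TSC 2 of *fog* was higher at 2-5 hr by 3.44 on the log2 scale (SE 0.82, adjusted p of limma 0.0048). TSC 1 differed by -0.42 (SE 0.42, adjusted p of limma 0.58) and TSC 6 by 1.55 (SE 0.69, 0.13). Of the 3 *fog* TSCs tested, 1 was thus called higher, against 9.56% of all TSCs, and 0 were called lower, against 9.24%. Against 5-10 hr, TSC 2 differed by 1.12 on the log2 scale (SE 0.68, adjusted p of limma 0.26). None of the 3 was called in that comparison, at an unadjusted p under 0.05 either, against 6.08% of all TSCs called higher and 11.9% lower.

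**Figure D5:**
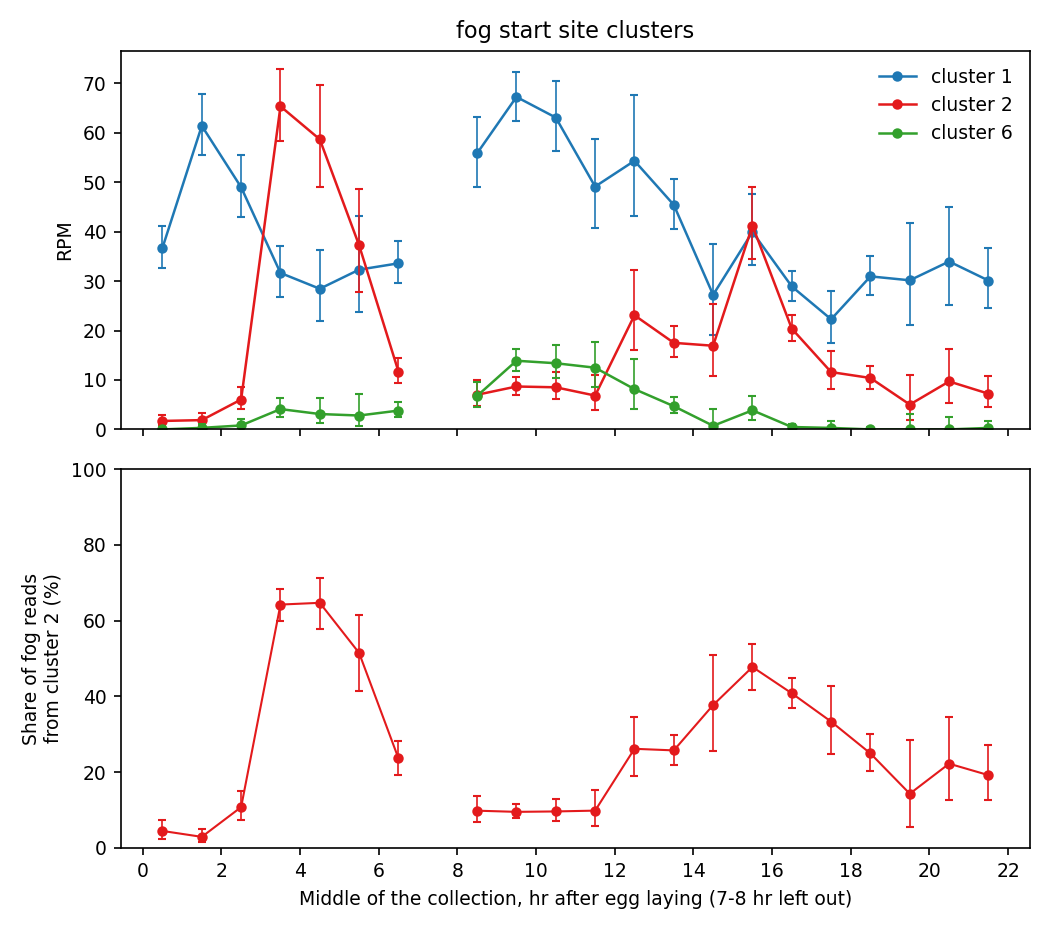
*fog* start site clusters by collection. Top, RPM of TSCs 1, 2 and 6 with 95% exact Poisson intervals. Bottom, share of *fog* reads from TSC 2 (%) with 95% exact binomial intervals. TSC 2 stands above TSC 1 at 3-4 hr and 4-5 hr, when its share is above 64%. It is also above TSC 1 at 5-6 hr and 15-16 hr, there with overlapping intervals. A second rise of the share reaches 47.8% at 15-16 hr.

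The share of *fog* reads that started at TSC 2 was 4.46% at 0-1 hr (exact interval 2.46% to 7.37%), 2.90% at 1-2 hr (1.51% to 5.01%) and 10.8% at 2-3 hr (7.37% to 15.0%). At 3-4 hr it was 64.2% (59.8% to 68.5%) and at 4-5 hr 64.7% (57.7% to 71.3%). The switch thus fell between the collection in which the 5 cellularization genes peaked and the next. It came back to 23.6% at 6-7 hr (19.4% to 28.3%) and stayed between 9.50% and 9.83% from 8 to 12 hr.

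From 12 hr the share rose again, to 47.8% at 15-16 hr (41.6% to 53.9%), and it was 14.3% at 19-20 hr (5.43% to 28.5%), where only 42 reads of *fog* were counted. The ratio of TSC 2 to TSC 1 on the log2 scale was fitted with the same smooth curve for 1345 pairs of start sites, each the leading pair of its gene. It changed with time for *fog* (adjusted p of limma 0.0023), and for 69.5% of all pairs. The ratio of *fog*, taken on RPM + 1, spanned 5.46 log2 units over the series, rank 346 of 1345, against a median of 3.90 over the pairs. With a pseudocount of 10 RPM the span was 3.44 (rank 373, median 2.52). The call for *fog* was lost without the 0-1 hr collection (adjusted p = 0.054), and this test too was added after the values were seen.

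*T48* was close to the detection limit. It had 27 reads in the whole series, in 8 collections, and its highest value was 1.55 RPM at 8-9 hr (7 reads, interval 0.622 to 3.19 RPM). From 2 to 6 hr *T48* had 0 reads in all 4 collections, which include those from 3-4 hr to 5-6 hr in which *fog* TSC 2 was high. A gene at 0 reads could still have been at up to 0.592 RPM at 2-3 hr and 2.06 RPM at 5-6 hr. Expression of *T48* from 2 to 6 hr was thus not detectable at this depth, which does not show that it was absent. Reads from a start site that was not assigned to *T48* would not be counted either, and whether there was one was not tested.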

How the data were processed

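The genes and lists were chosen with earlier results of these data known. Reads were mapped by the authors with STAR, as the submitters' processing notes name, to the FlyBase *D. ananassae* r1.3 assembly, and TSCs were called over all collections jointly with a peak caller of their own and then assigned to annotated genes. The deposited gene and TSC tables give RPM, for which the authors scaled each collection by its read total. The deposited peak list lists a count in its score column, which no result uses, and a deposited table of smoothed Z-scores was not used. Samples were mapped to time points by their labels, and 0 columns of other samples were found.

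RPM values were divided by the value of 1 read in each column, and 100% came out whole within 0.1 read. The depth was 1193107 to 12409410 reads per collection, which limits the precision of low values to the counting intervals given. Rows of the gene table were tested where the highest collection was at least 10 RPM. Change with time (natural spline, 4 degrees of freedom) and the contrasts of windows were fitted by limma to log2(RPM + 1), with calls at an adjusted p of 0.05. The windows were 0-2, 2-5, 5-10, 10-16 and 16-22 hr, with 1 estimate of the spread. A spline of this kind follows slow change better than a peak in a single collection. Intervals are exact Poisson (levels), exact binomial (shares) and exact conditional binomial (ratios), at 95%. Rows and TSCs were joined where their reads were equal in all 21 collections. Pairs of start sites were the 2 TSCs with the highest summed RPM of a gene, both reaching 10 RPM.

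Alternatives were pseudocounts of 0.1 and 10 RPM, no minimum or 25 RPM, TMM scaling, edgeR's quasi-likelihood fit to those whole reads, smoothing over 3 collections, the 7-8 hr collection included and each collection left out in turn. The start site fits and their alternatives, the peak with 7-8 hr included and the ratios to the value of 3 reads without 2-3 hr were chosen after seeing the data. Named genes were the 8 by identifier and, for each, its 3 nearest rows by Pearson's r, of which at most 2 identifiers without a symbol are printed. A list of further genes of the pathway was not counted, because the sources used here pair their identifiers with no symbols, and no sequences are given, because no genome was used here. The fits were run on simulated reads in which most rows were unchanged and varied by noise alone. Their behaviour where most rows change with time, as here, was not tested. Python 3.11.15 (numpy 2.4.6, pandas 2.3.3, scipy 1.17.1, matplotlib 3.10.9) and R 4.3.3 (limma 3.58.1, edgeR 4.0.16) were used.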

Additional observations from a re-analysis of the deposited data

How the results depend on the processing

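No paired analysis was possible because no collection age was sampled more than once. The cause of the changes listed here was not tested. In the comparison of 2-5 hr with 0-2 hr, where no gene was called, *halo* (1 gene) was called higher with a pseudocount of 10 RPM, with TMM scaling and in edgeR, and leaving out 1 collection gave 0 to 1 (*halo* without 4-5, 5-6 or 9-10 hr). The log2 difference turned positive for *nullo* (0.38 with a pseudocount of 10 RPM, 0.079 with TMM, 2.22 in edgeR), *Sry-alpha* (0.71, 0.23 and 3.71), *bnk* (0.17 with a pseudocount of 10 RPM, 2.65 in edgeR) and *slam* (0.013 and 2.62), and none of these passed the test. Leaving out 1 collection gave -2.20 to 0.93 for *nullo*, -2.84 to 1.85 for *Sry-alpha*, -3.03 to 0.64 for *bnk*, -3.90 to 0.88 for *slam* and 0.31 to 1.05 for *fog*.

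In the comparison of 2-5 hr with 5-10 hr, where 4 genes were called, 1 was called with a pseudocount of 10 RPM, 3 with 0.1 RPM and 5 in edgeR (*nullo* added). Leaving out 1 collection gave 1 to 5, with 1 (*halo*) without 2-3 hr and 2 without 8-9 hr or 9-10 hr. The log2 differences then ranged from 0.24 to 3.31 for *nullo*, 1.43 to 6.12 for *Sry-alpha*, 1.15 to 4.82 for *bnk*, 1.03 to 5.81 for *slam*, 3.84 to 5.76 for *halo* and 0.037 to 0.46 for *fog*. Change with time was called for 5 to 6 genes when 1 collection was left out. Over all rows, leaving out 1 collection gave 166 to 696 called higher and 192 to 1027 lower against 0-2 hr, and 106 to 482 higher and 274 to 1081 lower against 5-10 hr, where edgeR called 686 higher.

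With the mean of 3 neighbouring collections the peak moved to the collection starting at 1 hr for *nullo*, *Sry-alpha*, *bnk* and *slam*, at 3 hr for *halo* and at 4 hr for *fog*. With TMM the peak of *fog* moved to that starting at 15 hr. For the change of the ratio of *fog* TSC 2 to TSC 1, leaving out 1 collection gave adjusted p-values of limma of 0.00022 to 0.054. The genes with at least 60% of their summed RPM within 8 hr numbered 5 in every alternative run for that count. The depth of the shallowest collections limits statements on *T48* and on late traces of the other genes.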
